A study of Drosophila melanogaster with 48 samples.

Results

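The late temporal genes Imp, Syp, chinmo, mamo and lin-28 were examined for binding of Zelda (Zld), a pioneer transcription factor, in brains of Drosophila melanogaster larvae. The genes were taken by name, 5 of 13922 protein-coding genes in the table used here. Each summit of the authors' peak lists was assigned to a gene when it fell in the gene's span or no more than 5 kb outside it, which gave 131 of 16252 summits in the UAS-HA-Zld list and 103 of 13826 in the brat list.

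Neuroblasts, the neural stem cells of the fly, change the neurons they produce as they age. Imp and Syp encode RNA-binding proteins that form opposing gradients over this time, with Imp high in young and Syp high in old neuroblasts, and each restrains the other. Both act on the mRNA of chinmo, a BTB zinc-finger transcription factor gene that gives early-born neurons their identity, and mamo encodes a related factor of an intermediate window. The product of lin-28 is an RNA-binding protein that in many animals blocks maturation of the let-7 microRNA, and let-7 in turn lowers Chinmo in the fly.

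The series holds 48 CUT&RUN samples, 42 of them from the S2 cell line. In CUT&RUN a nuclease tethered to an antibody releases DNA around the bound protein. Anti-Zld brain samples number 4, with 2 replicates in each of 2 conditions and 1 peak list per condition. The first condition is titled UAS-HA-Zld, after a Gal4-driven transgene for HA-tagged Zld, and the second is titled brat. The genotype label is the same in all 4 samples. It names WorGal4, a Gal4 driver from the neuroblast gene worniu, together with UAS-HA-Zld, the Gal4 repressor Tub-Gal80ts, which is inactivated by heat, and brat11 over DF. Loss of brat, a translational repressor, makes type II neuroblasts accumulate. The 2 conditions were therefore told apart by their titles alone, and whether brat brains lacked the transgene was not established here. Both carried the same temperature step in their labels, from 18°C to 33°C for 24 h at the L3 stage. Each reaction used 50 whole brains, although the cell type label is type II neuroblast. Binding in more cells and stronger binding per cell cannot be told apart in such material.

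With 1 list per condition, no difference between conditions could be set against replicate spread, and no test between them was run. A peak was counted as 1 interval, which can hold several summits. It was called matched when it shared at least 1 base with a peak of the other list, and otherwise UAS-HA-Zld-only or brat-only. The genome-wide floor of the background was 28.8 fragments in the UAS-HA-Zld list and 22.6 in the brat list, so that the UAS-HA-Zld list was 1.28 times deeper by this measure. Running peak numbers showed that 19.5% of called peaks in each list were not among those analysed here, 2191 for UAS-HA-Zld and 1846 for brat. An unmatched peak therefore does not establish that the other condition had no peak there. Of the unmatched peaks at the 5 genes, 11 of 20 UAS-HA-Zld-only and 6 of 8 brat-only ones had an absent number of the other list beside them, against 51.7% and 61.2% over the whole lists.

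All 5 genes had peaks in both conditions, where 56.7% of all protein-coding genes had one in the UAS-HA-Zld list and 56.7% in the brat list. Of the 1012 protein-coding genes of at least 20 kb, the size class of Imp, Syp, chinmo and mamo, 79.0% and 79.4% had one. Together the 5 genes held 69 peaks in UAS-HA-Zld brains and 56 in brat brains. Of the UAS-HA-Zld peaks, 20 were UAS-HA-Zld-only, which is 29.0% (Wilson 95% interval 19.6 to 40.6), against 32.9% of the whole list. Of the brat peaks, 8 were brat-only, which is 14.3% (7.42 to 25.7), against 21.9% of the whole list. Both whole-list shares lay inside the intervals, so no departure of the 5 pooled genes from their lists was detectable at this number of peaks. The intervals cover counting error only.

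**Figure D1:**
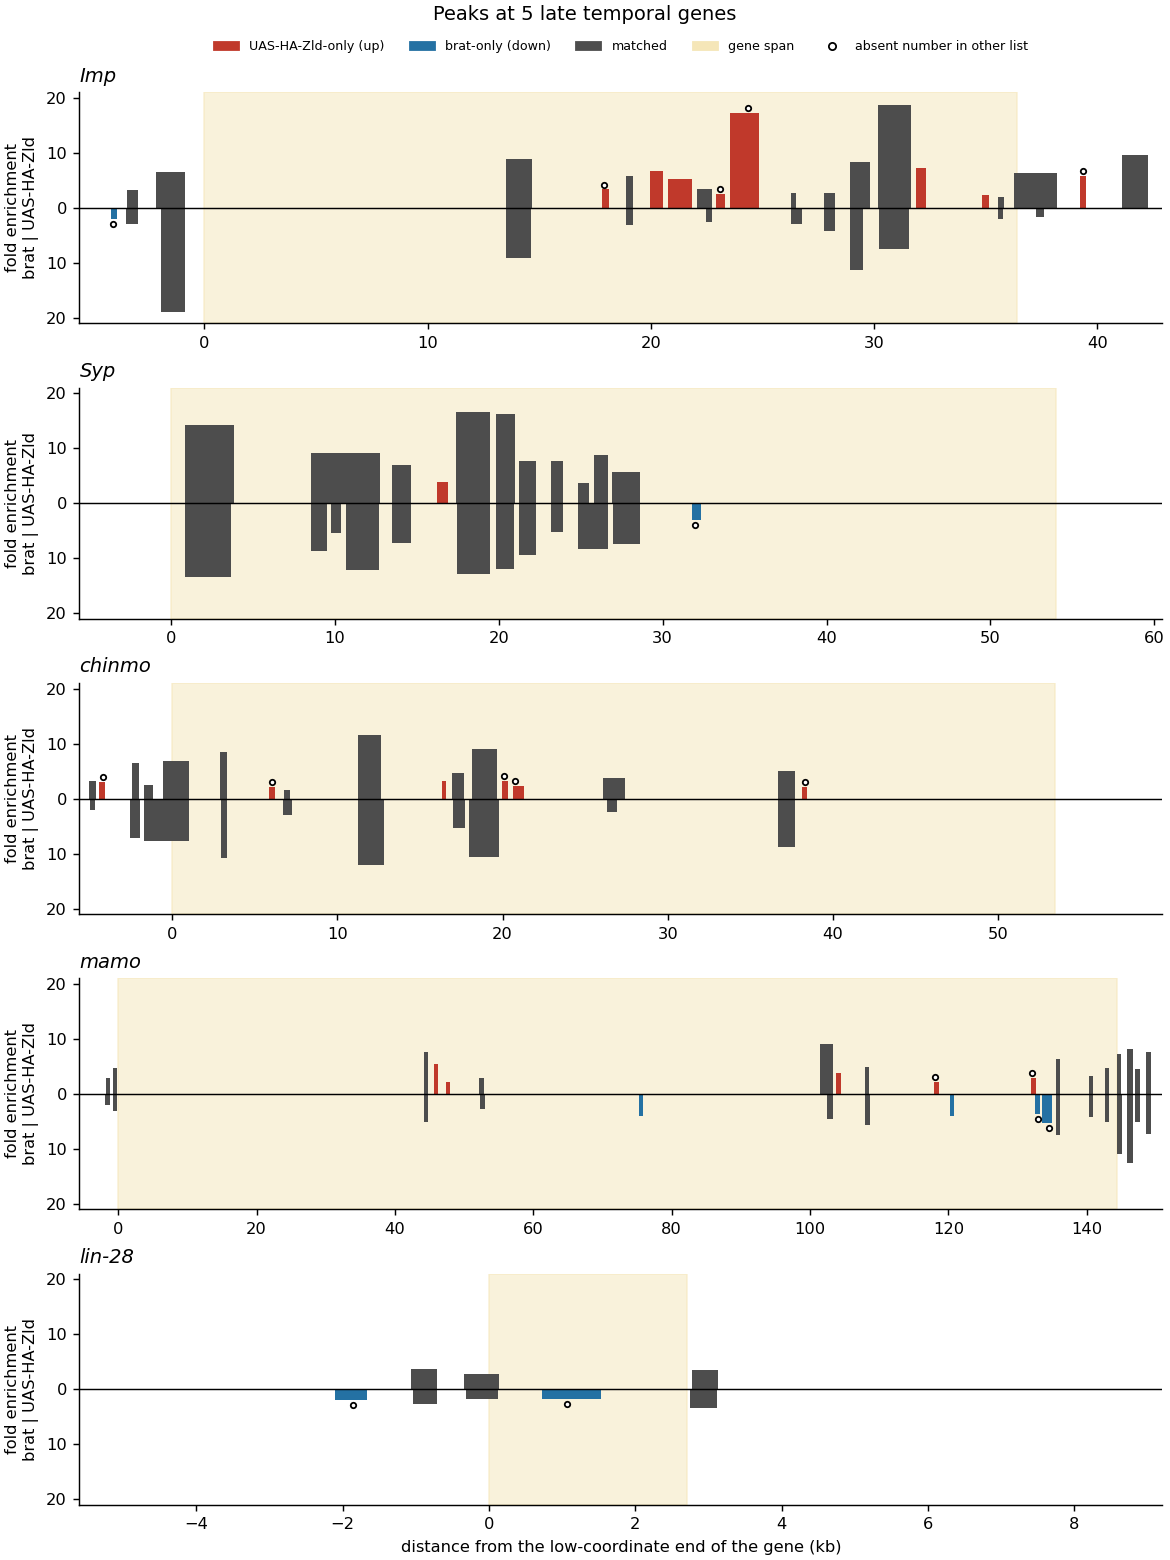
Peaks in the UAS-HA-Zld list (upwards) and the brat list (downwards) at each gene, by distance in kb from the end of the gene with the lower coordinate; bar height is the authors' fold enrichment at the strongest summit and bar width the peak width. Red and blue bars are unmatched peaks, 20 and 8 in all, grey bars are matched ones, and open circles mark unmatched peaks beside an absent peak number of the other list, 11 and 6 in all.

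Imp, an RNA-binding protein gene of young neuroblasts, had the largest gap in peak number among the 5 genes. It spans 36.4 kb of the X chromosome (10787869 to 10824277, dm6). There were 20 peaks with 38 summits in UAS-HA-Zld brains, against 12 peaks with 19 summits in brat brains. Peak numbers this high were rare in either list, at 0.187% and 0.345% of all protein-coding genes and at 2.57% and 4.74% of those of at least 20 kb. Peaks covered 32.3% of the window in UAS-HA-Zld brains and 15.2% in brat brains. UAS-HA-Zld-only peaks numbered 8 and brat-only peaks 1. As many as 8 UAS-HA-Zld-only peaks were found at 0.201% of all protein-coding genes, and at 2.77% of those of at least 20 kb. The 8 were 40.0% of the UAS-HA-Zld peaks at Imp, against 32.9% of the whole list. The 1 brat-only peak was 8.33% of its brat peaks, against 21.9%.

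Most of the UAS-HA-Zld-only peaks of Imp lay in the interior of the gene. The strongest (X, 10811419 to 10812714) had 3 summits, a fold enrichment at the strongest of 17.3 and a pileup of 668 fragments over a local background of 37.6, and 92.1% of the peaks of that list had a lower −log10 q. The second strongest (10819739 to 10820203) had a fold of 7.22 and 425 fragments over 58.0. The third (10807812 to 10808401) had a fold of 6.76 and 269 fragments over 38.9. Of the 8, 5 exceeded the median −log10 q of their list, where 29.4% of all UAS-HA-Zld-only peaks did. All 8 lay within 451 to 1868 bp of a brat summit.

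The absent peak numbers touch several of these Imp peaks. For 4 of the 8, the strongest included, at least 1 brat number was absent between the neighbouring brat peaks, and for 4 none was. The 4 without an absent number lay at 10807812 to 10808401, 10808656 to 10809707 (fold 5.31), 10819739 to 10820203 and 10822706 to 10823013 (fold 2.28). The 1 brat-only peak (10783664 to 10783953) had a fold of 2.04 and 60 fragments. It lay inside the neighbouring genes Ant2 and sesB, and had an absent number beside it too.

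At some matched sites of Imp the order of fold differed between the lists, but the site with the highest pileup was the same in both. That site (10816781 to 10817675) had a fold of 8.35 with 1439 fragments in UAS-HA-Zld brains. The brat summit 8 bp away had a fold of 11.2 with 1389 fragments, and its peak (10816773 to 10817359) was the strongest brat peak at Imp by −log10 q. The strongest summit of each of the 12 matched UAS-HA-Zld peaks lay a median of 24.5 bp from the nearest brat summit. The site with the highest fold in UAS-HA-Zld brains (10818035 to 10819523) held 5 summits, and the overlapping brat peak 3. Its strongest summit, 30.9 kb from the low-coordinate end, had a fold of 18.7 with 1413 fragments in UAS-HA-Zld brains, and the brat summit 56 bp away had a fold of 4.72 with 298 fragments. A second summit of this peak lay 1 bp from the strongest brat summit, with a fold of 8.89 and 700 fragments in UAS-HA-Zld brains, and 7.46 and 419 fragments in brat brains. The reverse order held at a lower coordinate, at 10785713 to 10786998, inside Ant2 and sesB. There the fold was 6.57 with 381 fragments in UAS-HA-Zld brains, and 18.9 with 608 fragments in brat brains, the highest of the Imp window in that list, with 34 bp between the summits. The local background was 57.1 fragments in the UAS-HA-Zld list and 31.2 in the brat list. Fold enrichments and pileups are the values of each list on its own scale, and no ratio between lists was formed. The 12 matched peaks of UAS-HA-Zld brains faced 11 in brat brains, since the brat partner of the outermost one had its summits beyond 5 kb.

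Syp, the RNA-binding protein gene of old neuroblasts, held the strongest site of the 5 genes in UAS-HA-Zld brains, and nearly all of its sites were present in both conditions. It spans 54.0 kb of chromosome arm 3R (20756729 to 20810726). There were 11 peaks with 35 summits in UAS-HA-Zld brains, and 12 peaks with 28 summits in brat brains, of which 10 and 11 were matched. Peak numbers this high were found at 0.74% and 0.345% of all protein-coding genes, and at 9.39% and 4.74% of those of at least 20 kb. All 11 peaks in UAS-HA-Zld brains and 11 of 12 in brat brains exceeded the median −log10 q of their list. Peaks covered 26.9% of the window in UAS-HA-Zld brains and 25.8% in brat brains, where the median gene of at least 20 kb had 2.81% and 2.89%.

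The top Syp site (20776538 to 20777694) ranked 52nd of 9065 peaks in UAS-HA-Zld brains, with a fold of 16.3 and 2367 fragments over a local background of 144. Its brat peak (20776541 to 20777676) had a fold of 12.0 and 1207 fragments over 99.5, and ranked 311th of 7644. A neighbouring site at 20774140 to 20776215 had a fold of 16.5 with 1903 fragments in UAS-HA-Zld brains, and 12.9 with 1045 fragments in brat brains. The strongest summit of the peak at 20777966 to 20779007 had a fold of 7.76 with 1910 fragments in UAS-HA-Zld brains, and the brat summit 30 bp away had 7.25 with 1274 fragments. The one at 20782522 to 20783385 had 2213 fragments in UAS-HA-Zld brains, and the brat summit 42 bp away, in a longer peak (20781584 to 20783388), had 1301. All 4 sites thus had high pileups in both lists. The local background at Syp peaks was itself high. Its median was 4.20 times the floor in the UAS-HA-Zld list and 3.53 times in the brat list, against 2.18 and 1.88 times over all peaks of the lists, and its part in the peak calls was not tested.

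The Syp sites gathered in the lower-coordinate part of the gene. The longest stretch of the gene without a summit ran from 28.3 to 54.0 kb from the low-coordinate end in UAS-HA-Zld brains, and from 32.3 to 54.0 kb in brat brains, 47.5% and 40.1% of its length. The difference between those limits is 1 brat-only peak (20788499 to 20789085), with a fold of 3.07 and 150 fragments and an absent UAS-HA-Zld number beside it. The UAS-HA-Zld-only peak (20772981 to 20773618) had a fold of 3.91 and 230 fragments, with no absent brat number beside it. The UAS-HA-Zld list held 1 peak of 8 summits (20765275 to 20769461) across what was called as 3 peaks with 7 summits in brat brains, so that peak numbers at Syp partly follow how the caller joined neighbouring summits. The small genes CG31195 and Takl1 lie within the span of Syp, and the summit at 2.90 kb fell inside CG31195.

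**Figure D2:**
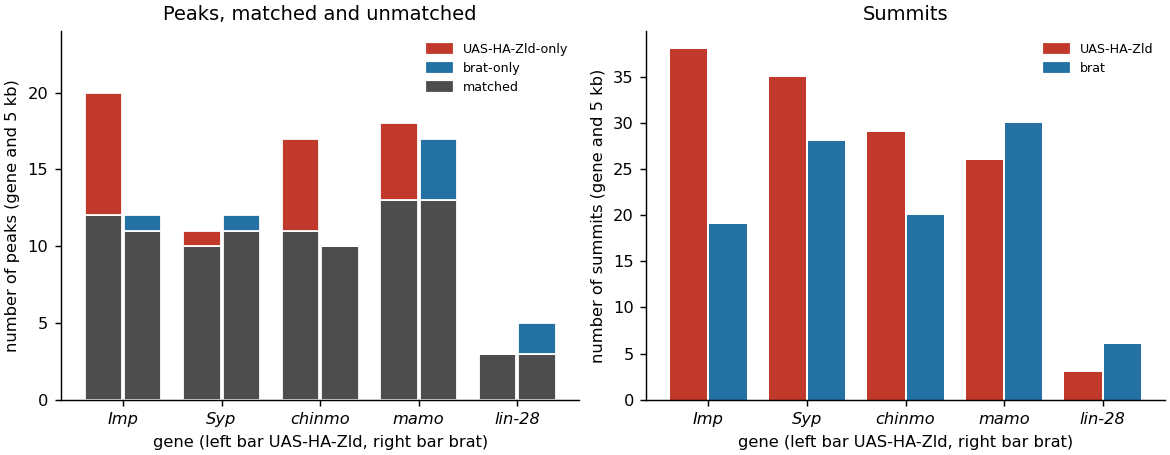
Number of peaks (left panel, matched and unmatched) and of summits (right panel) at each gene with 5 kb on either side; the left bar of each pair is the UAS-HA-Zld list and the right bar the brat list. Imp has 20 and 12 peaks and chinmo 17 and 10, while Syp has 11 and 12, mamo 18 and 17 and lin-28 3 and 5.

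The transcription factor gene chinmo had 6 UAS-HA-Zld-only peaks and no brat-only peak, but its UAS-HA-Zld-only peaks were weak. It spans 53.4 kb of arm 2L (1651258 to 1704682). There were 17 peaks with 29 summits in UAS-HA-Zld brains, against 10 peaks with 20 summits in brat brains. Such peak numbers were found at 0.302% and 0.553% of all protein-coding genes, and at 4.15% and 7.51% of those of at least 20 kb. UAS-HA-Zld-only peaks numbered 6, and no peak was brat-only. With the lists cut to equal length these counts were 3 and 1, and with −log10 q of at least 5 or at least 10 they were 6 and 1. Of all protein-coding genes, 0.359% had 6 or more UAS-HA-Zld-only peaks, and of those of at least 20 kb 4.74%. The 6 were 35.3% of the UAS-HA-Zld peaks at chinmo, close to the 32.9% of the whole list.

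The 3 strongest of the 6 lay at 1671222 to 1671585 (fold 3.20, 164 fragments), 1667582 to 1667833 (fold 3.13, 150 fragments) and 1646854 to 1647210 (fold 3.04, 123 fragments). None of the 6 exceeded the median −log10 q of the UAS-HA-Zld list, in contrast to 5 of the 8 at Imp. An absent brat number lay beside 5 of the 6, the exception being the peak at 1667582. They lay 515 to 1384 bp from the nearest brat summit.

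The strong chinmo sites were all matched. The strongest in UAS-HA-Zld brains (1662504 to 1663878) had its strongest summit at 12.2 kb, with a fold of 11.6 and 898 fragments, and the brat summit 1 bp away had a fold of 11.2 and 599 fragments. A second pair of summits in the same peak, 11 bp apart at 11.9 kb, had a fold of 6.82 with 486 fragments in UAS-HA-Zld brains, and 12.1 with 587 fragments in brat brains. The second, at 1669427 to 1670924, had a fold of 9.09 and 874 fragments in UAS-HA-Zld brains, and 10.7 and 762 fragments in brat brains. At the low-coordinate end of the gene a UAS-HA-Zld peak (1650702 to 1652299) had its strongest summit 65 bp inside the gene, with a fold of 6.89 and 388 fragments. The overlapping brat peak (1649556 to 1652318) had its strongest summit 152 bp outside that end, with a fold of 7.68 and 272 fragments, 217 bp away from it. From 38.3 kb in UAS-HA-Zld brains and 37.1 kb in brat brains up to the high-coordinate end, no summit was listed, 15.1 and 16.3 kb of the gene.

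At mamo, the other BTB zinc-finger factor gene, peak numbers were close and both lists held unmatched peaks. It is the longest of the 5 genes, 144 kb of the X chromosome (13846116 to 13990527). There were 18 peaks with 26 summits in UAS-HA-Zld brains and 17 peaks with 30 summits in brat brains, with 13 peaks matched in each. Such peak numbers were found at 0.237% and 0.129% of all protein-coding genes, and at 3.26% and 1.78% of those of at least 20 kb. UAS-HA-Zld-only peaks numbered 5, and as many were found at 0.697% and 7.51% of these genes. Brat-only peaks numbered 4, and as many were found at 0.488% and 2.27%. These were 27.8% of the UAS-HA-Zld peaks and 23.5% of the brat peaks at mamo, near the 32.9% and 21.9% of the whole lists. With the lists cut to equal length the counts were 3 and 4, which turns their order.

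The strongest UAS-HA-Zld-only peak of mamo (13891733 to 13892313) had a fold of 5.52 and 338 fragments. It was followed by those at 13949897 to 13950238 (fold 3.76, 111 fragments) and 13978079 to 13978288 (fold 2.92, 86 fragments). The strongest brat-only peak (13979657 to 13981023) had 5 summits, a fold of 5.26 and 123 fragments. The next were at 13921345 to 13921653 (fold 4.06, 101 fragments) and 13966365 to 13966899 (fold 4.03, 94 fragments). The brat-only peak at 13921345 stood alone, with 22663 bp to the nearest UAS-HA-Zld summit and no absent number beside it. The UAS-HA-Zld-only peaks at 13891733, 13893430 and 13949897 and the brat-only ones at 13921345 and 13966365 had no absent number beside them, and the other 2 of each kind had.

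Of the 13 matched mamo peaks in each list, 7 gathered at the high-coordinate end. From 13981659 on, 7 matched peaks followed each other in UAS-HA-Zld brains and 7 in brat brains, with folds of 3.31 to 8.17 and of 4.24 to 12.5. The peak at 13991956 to 13992758 had a fold of 8.17 with 271 fragments in UAS-HA-Zld brains, and 12.5 with 298 fragments in brat brains, the highest fold of the window in that list. The peak at 13990491 to 13991107 had its summit 261 bp beyond the end of mamo, with a fold of 7.18 and 726 fragments in UAS-HA-Zld brains, and 11.0 and 741 fragments in brat brains. In the interior, a matched site at 13947529 to 13949422 had the highest fold in UAS-HA-Zld brains, 9.09 with 398 fragments, against 4.55 with 138 fragments in brat brains. The strongest matched UAS-HA-Zld peak by −log10 q was also interior, at 13890348 to 13890860, 44.6 kb from the low-coordinate end. It had a fold of 7.67 with 756 fragments, and the brat summit 18 bp away had 5.11 with 341 fragments. The longest stretch without a summit was 48.8 kb in UAS-HA-Zld brains, from 52.7 to 102 kb, and 44.6 kb in brat brains, from the low-coordinate end to 44.6 kb.

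At lin-28, the RNA-binding protein gene tied to let-7, only weak to moderate sites were found, and all of those in UAS-HA-Zld brains were matched. It is short, 2.70 kb of arm 3L (5654681 to 5657384). There were 3 peaks in UAS-HA-Zld brains, at 5653619 to 5653975 (fold 3.60, 250 fragments), 5654334 to 5654811 (fold 2.78, 147 fragments) and 5657455 to 5657813 (fold 3.44, 418 fragments). All 3 had their summits outside the gene. The same sites in brat brains had folds of 2.68, 1.71 and 3.37 with 117, 72 and 284 fragments. As many as 3 UAS-HA-Zld peaks were found at 17.3% of protein-coding genes, and as many as the 5 brat peaks at 3.91%.

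There were 2 brat-only peaks at lin-28 besides, at 5652581 to 5653007 (fold 2.04, 102 fragments) and, inside the gene, at 5655406 to 5656206 (fold 1.77, 68 fragments). Each had an absent UAS-HA-Zld number beside it. A pair or more of brat-only peaks was found at 5.42% of protein-coding genes. The window of lin-28 is crowded. The summit at 5657620 lay 236 bp from the end of lin-28 on the side of the neighbouring gene sif, and the brat-only peak at 5652581 lay 728 bp from the end of Blimp-1, so that these sites cannot be assigned to lin-28 alone.

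**Figure D3:**
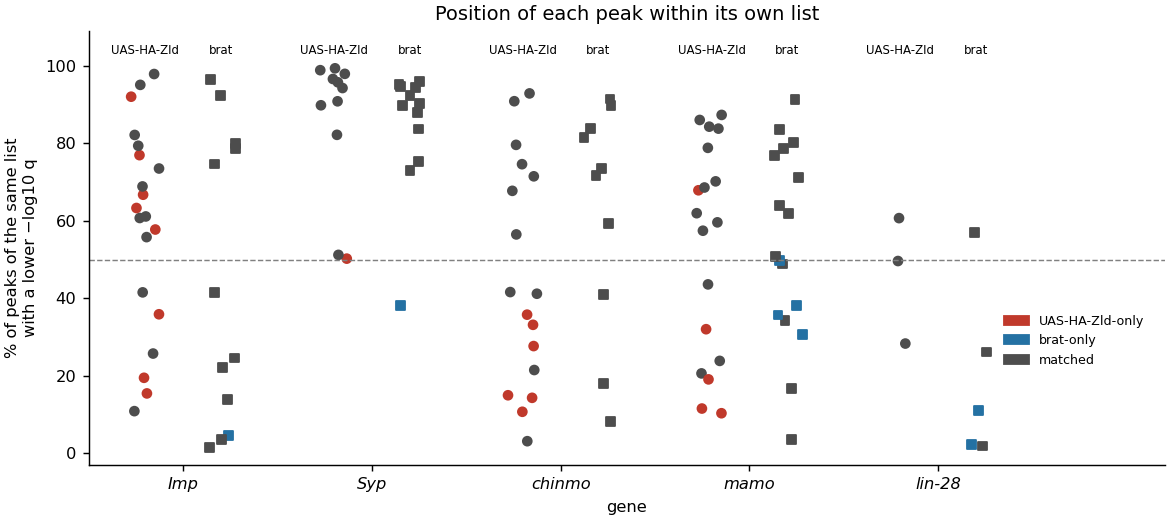
Each point is a peak at 1 of the 5 genes, placed by the percentage of peaks of its own list with a lower −log10 q; circles are UAS-HA-Zld peaks and squares brat peaks, coloured by whether the peak was matched. The Syp peaks crowd the top in both lists. Above the dashed line at the median of the list lie 7 of the 20 UAS-HA-Zld-only peaks and 0 of the 8 brat-only peaks. Over the whole lists, 29.4% and 19.5% of these classes lie above it.

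Across the 5 genes, unmatched peaks were weaker and narrower than matched ones, as in the lists as a whole. In UAS-HA-Zld brains the median fold was 3.17 for unmatched and 6.32 for matched peaks, and the median width 360.5 and 683 bp. The gap in fold was small at Imp, with 5.57 for unmatched and 6.02 for matched peaks, against 2.69 and 5.01 at chinmo and 2.92 and 4.97 at mamo. In brat brains the median fold was 3.38 and 5.53, and the median width 506.5 and 627.5 bp. Over the whole lists the medians of fold were 2.94 and 4.32 for UAS-HA-Zld, and 2.91 and 4.46 for brat. None of the 20 UAS-HA-Zld-only peaks and none of the 8 brat-only peaks had its strongest summit within 500 bp of an end of a protein-coding gene, against 17.9% and 42.3% of these classes over the whole lists. Matched peaks lay there in 6 of 49 cases in UAS-HA-Zld brains (12.2%) and 6 of 48 in brat brains (12.5%), against 36.7% and 37.9% over the whole lists. The genes other than lin-28 are long, and sites far from gene ends are to that extent set by the choice of genes.

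Unmatched sites of the 5 genes also lay close to sites of the other condition. The median distance from a UAS-HA-Zld-only summit to the nearest brat summit was 1152 bp, against 3442 bp over all UAS-HA-Zld-only peaks, and from a brat-only summit to the nearest UAS-HA-Zld summit 1223 bp, against 4182.5 bp. The 5 windows are dense in peaks, and the part of this density in the distances was not tested. At matched peaks, the strongest UAS-HA-Zld summit was within 50 bp of a brat summit in 35 of 49 cases (71.4%), close to the 75.8% of the whole list.

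Without Imp, 12 of 49 UAS-HA-Zld peaks were unmatched (24.5%), and 7 of 44 brat peaks (15.9%). UAS-HA-Zld brains had more peaks than brat brains at 3 of the 5 genes, Imp, chinmo and mamo, and fewer at Syp and lin-28. Over all protein-coding genes 20.9% had more and 17.8% fewer. Of genes of at least 20 kb, 39.0% had more and 23.6% fewer. A UAS-HA-Zld-only peak was present at 4 of the 5 genes (all but lin-28), at 22.9% of all protein-coding genes and at 47.0% of those of at least 20 kb. For brat-only peaks the counts were 4 of the 5 (all but chinmo), 22.0% and 42.4%.

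Among 14 other temporal genes of neuroblasts, all had a peak in both conditions, 11 carried UAS-HA-Zld-only peaks and 6 carried brat-only peaks. Of their 143 UAS-HA-Zld peaks 34 were UAS-HA-Zld-only, 23.8% (17.5 to 31.4), and of their 121 brat peaks 12 were brat-only, 9.92% (5.76 to 16.5). Both intervals, which cover counting error only, lay below the whole-list shares of 32.9% and 21.9%. The genes with most UAS-HA-Zld-only peaks were the ecdysone-induced receptor gene Eip75B with 8, svp, which encodes a nuclear receptor that marks a switch in neuroblast age, with 5, and br, a BTB factor of the ecdysone response, with 4. Those with most brat-only peaks were grh, a transcription factor gene of older embryonic neuroblasts, with 4, and br and the ecdysone-induced factor gene Eip93F with 2 each.

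Of 12 other BTB factor genes, not all of the zinc-finger type of chinmo and mamo, all had a peak in both conditions. UAS-HA-Zld-only peaks were present at 9 and brat-only peaks at 7. They made up 22.3% of 103 UAS-HA-Zld peaks (15.4 to 31.3) and 10.0% of 90 brat peaks (5.35 to 17.9). These intervals too lay below the whole-list shares of 32.9% and 21.9%. The list is not separate from that of the other temporal genes, since br, with 20 UAS-HA-Zld and 19 brat peaks, is in both. The genes with most UAS-HA-Zld-only peaks were psq, br and bab1 with 4 each, and those with most brat-only peaks were br and bab1 with 2 each and ttk with 1.

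RNA-binding protein genes of neurons and germ cells, a group related to Imp, Syp and lin-28 in the kind of product, numbered 18. Of these, 15 had a peak in UAS-HA-Zld brains and 17 in brat brains. Of their 138 UAS-HA-Zld peaks 51 were UAS-HA-Zld-only, 37.0% (29.4 to 45.3), and of their 102 brat peaks 19 were brat-only, 18.6% (12.3 to 27.3). Both intervals include the whole-list shares of 32.9% and 21.9%. UAS-HA-Zld-only peaks were present at 6 genes, with 25 at bru3, a gene of the Bruno family, 16 at heph, the fly polypyrimidine tract-binding protein gene, and 4 at mub. Brat-only peaks were present at 10 genes, led by the translational repressor gene pum with 5, heph with 4 and the Musashi gene msi with 2. Of 6 entries for the let-7 complex and related heterochronic regulators, ab and dati had 2 and 3 UAS-HA-Zld-only peaks, and 1 and 2 brat-only peaks. The host transcript of the let-7 complex had 7 peaks in each condition, all matched.

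**Figure D4:**
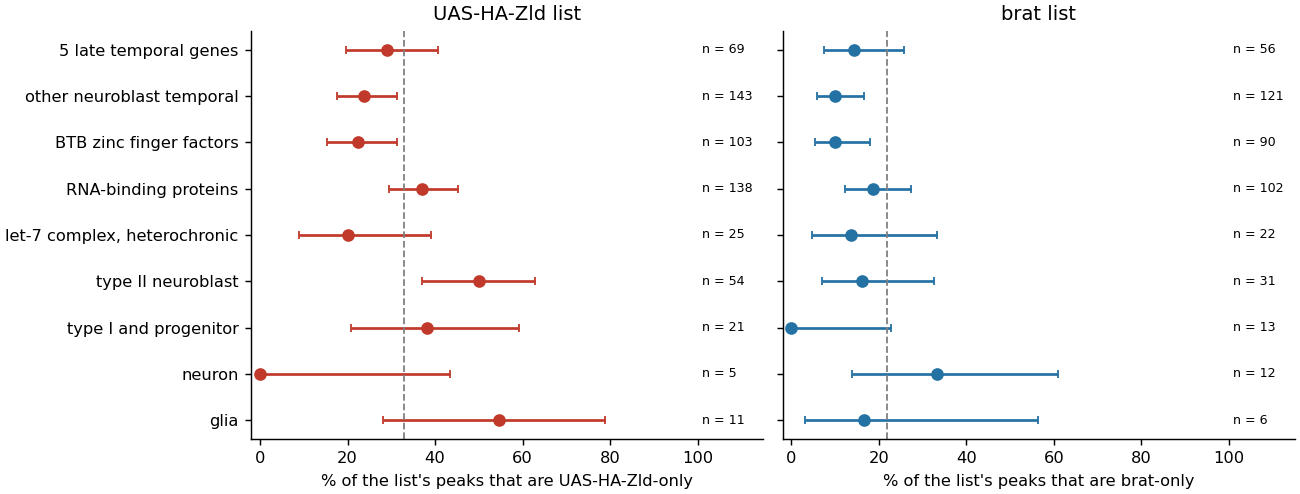
Percentage of UAS-HA-Zld peaks that were UAS-HA-Zld-only (left panel) and of brat peaks that were brat-only (right panel) at the genes of each list, with Wilson 95% intervals and the number of peaks (n); dashed lines mark the whole lists, 32.9% and 21.9%. The intervals of the 5 late temporal genes, 29.0% and 14.3%, include both lines.

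The brains hold many cell types, and marker genes were counted as places of binding, which is not expression. The 6 genes listed as type II neuroblast markers were pnt, tll, Sp1, btd, dpn and klu. All 6 had peaks in both conditions, with 54 peaks in UAS-HA-Zld brains and 31 in brat brains. UAS-HA-Zld-only peaks numbered 27, 50.0% (37.1 to 62.9), an interval above the 32.9% of the whole list. It covers counting error only, and 10 of the 27 were at 1 gene, Sp1, which had 14 UAS-HA-Zld peaks. Brat-only peaks numbered 5, 16.1% (7.09 to 32.6), an interval that includes the 21.9% of the whole list. The 3 markers of type I neuroblasts and intermediate progenitors had 21 and 13 peaks, with 8 UAS-HA-Zld-only, 38.1% (20.8 to 59.1), and 0 brat-only (0 to 22.8). The 3 neuron markers had 5 and 12 peaks, with 0 UAS-HA-Zld-only (0 to 43.4) and 4 brat-only, 33.3% (13.8 to 60.9). The 4 glia markers had 11 and 6 peaks, with 6 UAS-HA-Zld-only, 54.5% (28.0 to 78.7), and 1 brat-only, 16.7% (3.01 to 56.4). All intervals of these 3 small lists include the whole-list shares. Each of the type II, type I and progenitor markers had more peaks in UAS-HA-Zld brains, as Imp, chinmo and mamo had, but not Syp and lin-28. Each neuron marker had more in brat brains. Over all protein-coding genes 20.9% had more peaks in UAS-HA-Zld brains and 17.8% fewer, and of those of at least 20 kb 39.0% and 23.6%. At the neuron marker elav, with 1 peak in UAS-HA-Zld brains and 3 in brat brains, no peak was unmatched in either list. The glia markers were mixed. The glutamate transporter gene Eaat1 had 5 peaks in UAS-HA-Zld brains, 4 of them UAS-HA-Zld-only, and 1 in brat brains, while repo, the transcription factor gene that defines most glia, had 1 in UAS-HA-Zld brains and 2 in brat brains, 1 of them brat-only. The part of cell type make-up in the results at the 5 genes was not tested.

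By the numbers of UAS-HA-Zld-only, brat-only and matched UAS-HA-Zld peaks, the protein-coding gene most like Imp was bi, which encodes a T-box transcription factor, with 8, 0 and 12 against 8, 1 and 12 at Imp. CG42342, px and ush were tied for the next place, with 9, 3 and 12 at CG42342, 6, 2 and 12 at px, and 7, 1 and 10 at ush. Likeness was the Euclidean distance over these 3 counts, taken over the 2 lists, and all 4 genes are longer than Imp, with 64341 to 72792 bp.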

How the data were processed

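The data are the authors' peak lists from CUT&RUN with anti-Zld antibody on larval brains, 1 per condition. The submitters' processing notes name Bowtie2, MACS2, deepTools 3.5.1 and build dm6, with no roles. Pooling of replicates, the control track and later filters are not stated there or in the labels. The deposited narrowPeak columns give a score in whole numbers, a ratio of pileup over local background at the summit (fold enrichment), and −log10 of the p-value and q-value, as the authors' caller wrote them. The smallest deposited −log10 q was 1.30 in the UAS-HA-Zld list and 1.31 in the brat list.

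Pileup and local background were solved from fold and −log10 p under the Poisson model of MACS2. All summits (100%) of each list had a solution with a whole pileup (relative tolerance 0.0001). The median summit pileup was 208 fragments in UAS-HA-Zld and 147 in brat. Gene spans came from a RefSeq table of the same assembly, without strand or exons, so gene ends are named by coordinate, and exons, introns and start sites were not assigned. No genome or promoter sequence was used here, so the planned motif search was not run and no sequences are shown. The solver and the matching were tested on simulated data. Python 3.11.15, pandas 2.3.3 and statsmodels 0.14.6 were used.

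The genes and lists were chosen with earlier results of these data known. For each gene the strongest matched peak, up to 3 strongest unmatched peaks per list by −log10 q, and all peaks of a gene with 5 or fewer are named. Other peaks named were picked after their values were seen. Of each comparison list the up to 3 genes with most unmatched peaks are named, with ties ordered by −log10 q. Alternatives were stricter thresholds, equal list lengths, other windows, assignment to the nearest gene and stricter matching. Scaling to equal coverage and leaving out unmatched peaks beside absent numbers were added after the data were seen. S2 samples and control IgG brain samples were not analysed here.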

Additional observations from a re-analysis of the deposited data

How the results depend on the processing

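No paired analysis was possible because each condition had 1 peak list for its 2 replicates, and for the same reason no replicate could be left out. Over the 5 genes, the counts of summits, of peaks and of matched and unmatched peaks stayed within 1.5 times under all alternatives but 1. UAS-HA-Zld-only peaks ranged from 14 (equal list lengths) to 24 (−log10 q of at least 5), against 20, and brat-only peaks from 6 to 10, against 8. Scaling to equal coverage gave 20 and 8. Leaving out unmatched peaks beside an absent number of the other list, added after the data were seen, brought the counts to 9 and 2, with 4 and 0 at Imp, 1 and 0 at chinmo, 1 and 0 at Syp, 3 and 2 at mamo and 0 and 0 at lin-28. It removes peaks by construction, and whether an absent peak lay at those bases was not tested. At Imp and chinmo UAS-HA-Zld-only peaks outnumbered brat-only ones under all 10 alternatives run, with 4 to 10 against 0 to 2, and 1 to 6 against 0 to 1. Equal list lengths gave 3 and 1 at chinmo, and 3 and 4 at mamo, which turns the order. At lin-28 a −log10 q of at least 10 turned it to 1 against 0, since 3 of its 5 brat peaks, with −log10 q of 3.65 to 9.12, fell below that threshold.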

Other observations

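Several sites counted for the late temporal genes lie in or beside other genes. The site with the highest fold of the Imp window in brat brains, 18.9, lay inside the adenine nucleotide translocase genes sesB and Ant2. At mamo 2 matched sites below its low-coordinate end lay inside AMPdeam, with folds of 2.95 and 4.70 in UAS-HA-Zld brains, and 2.05 and 3.12 in brat brains. The outermost matched mamo site, at 13994732 to 13995433, was nearest to ben, with its summit 1319 bp from an end of that gene, and had 607 fragments in UAS-HA-Zld brains and 396 in brat brains.

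Local background was uneven along the windows and its multiple of the floor was close in both lists at some matched sites and not at others. The control used for either list is not known here, so these values were not assigned to a condition. At the matched Imp peak from 10815607 to 10816109 it was 6.41 times the floor in the UAS-HA-Zld list and 5.68 times in the brat list. At the matched mamo peak from 13988758 to 13989312 it was 6.75 and 6.04 times. At the matched Imp peak from 10784408 to 10784893 it was 4.60 times in the UAS-HA-Zld list and 2.87 times in the brat list. At the one from 10809951 to 10810590 it was 1.90 and 1.14 times. Each value was taken at the strongest summit of its own list. The summits lay 15 and 1 bp apart at the peaks from 10815607 and 13988758, but 141 and 370 bp apart at those from 10784408 and 10809951. At the brat-only mamo peaks from 13966365, 13978673 and 13979657 the local background was 22.6 fragments, the floor of the brat list. The matched brat peak from 13981663 had the same local background. At the UAS-HA-Zld-only mamo peaks from 13949897 and 13978079 this background was 28.8 fragments, the floor of the UAS-HA-Zld list.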
